A study of Rattus rattus with 24 samples.

Results

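Sphingosine-1-phosphate and lysophosphatidate are signalling lipids, and their receptors S1pr1, S1pr2, S1pr3, S1pr5 and Lpar1 were followed in rat oligodendrocyte precursor cell (OPC) cultures together with Sphk1, Sphk2 and Sgpl1, the enzymes that make and break down sphingosine-1-phosphate. These 8 genes were found by their symbols in the annotation of the array, among probe sets that carry a single symbol. All 8 had a probe set, 12 probe sets in all of the 31042 tested, and the array held 14217 genes with a single-symbol probe set. Where a gene had more than 1 probe set, the one with the highest mean stood for it. OPCs were selected with A2B5 microbeads from the cortex of rat pups in the first postnatal week, expanded with platelet-derived growth factor, and then cultured with the thyroid hormone T3 and the antipsychotic quetiapine. The groups were T3 (45 nM) plus quetiapine (1 μM), called the combination, then quetiapine alone, T3 alone, and control with the DMSO vehicle, each for 48 and for 96 hours. Each of the 8 conditions had 3 arrays, 1 from each biological replicate. The commercial supplement of the culture medium holds a small amount of T3 itself, so no group, control included, was free of the hormone. The labels name the species Rattus rattus, while the methods of the study name Sprague Dawley rats.

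Both lipids act from outside the cell on G protein-coupled receptors. Sphingosine is freed from ceramide by ceramidases and phosphorylated by sphingosine kinases, the product leaves the cell through transporters, and it is broken down by phosphatases or irreversibly by the lyase Sgpl1. Lysophosphatidate is made outside the cell mainly by the enzyme autotaxin, the product of Enpp2. The receptors differ in the G proteins they use, and so in whether a cell spreads, moves or rounds up. In the brain S1pr5 and Lpar1 are best known from oligodendrocytes, and S1pr1 and S1pr3 are prominent in astrocytes and blood vessels.

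The values are log2 expression after the authors' normalization, and a gene was called as risen or fallen where limma gave an adjusted p below 0.05, taken over all 31042 probe sets. The median of an array lay between 6.43 and 6.51, and Pearson's r across probe sets between arrays of the same condition was 0.986 to 0.996. Of the precursor markers, 6 of 7 were measured, and their mean log2 level lay between 10.51 and 11.40 on every array. That mean joins genes that ran in different directions. With the combination at 96 hours Olig1, Olig2 and Sox10 were higher than in control and Pdgfra, Cspg4 and Ptprz1 were lower. Of the 6, 1 rose and 1 fell, beside 13.6% of all probe sets higher and 15.7% lower. Astrocyte markers were also present, with 7 of 7 measured and a mean log2 level between 10.29 and 11.79, while the mean of 7 microglial markers lay between 5.35 and 6.41 and that of 5 endothelial markers between 4.25 and 4.64. Of the 5 endothelial markers 2 rose with the combination at 96 hours, where 13.6% of all probe sets were called higher. Most were dim, with means over all arrays of 3.50 for Pecam1, 3.64 for Tek, 4.18 for Cldn5 and 4.72 for Flt1. Whether they lay above background was not tested. The brightest, Kdr, was at 5.59 in the combination and 5.89 in control. Levels of different probe sets are not comparable, so these means give no shares of cells. At 96 hours the log2 level of beta-actin at its 3' end exceeded that at its 5' end, which reflects the state of the RNA, by 0.704 to 0.768 in the combination, 0.601 to 0.723 in quetiapine, 0.674 to 0.766 in T3 and 0.643 to 0.665 in control. For GAPDH the 3' minus 5' difference was −0.132 to −0.0920 in the combination and −0.113 to −0.0726 in quetiapine. It was −0.0756 to −0.0267 in T3 and −0.107 to −0.0565 in control. The part of the state of the RNA in the results at that time was not tested.

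At 96 hours the combination moved most of these genes. S1pr5 and Lpar1 rose, as did the kinases Sphk1 and Sphk2, whereas the receptor S1pr3 and the lyase Sgpl1 fell. That is 4 of 8 genes that rose and 2 that fell, where 29.2% of all probe sets tested passed (13.6% higher and 15.7% lower). With quetiapine alone S1pr5 and Lpar1 rose and none fell, 2 of 8 beside 5.89% of all probe sets (3.65% higher and 2.24% lower). With T3 alone S1pr5, Lpar1 and Sphk2 rose and none fell, 3 of 8 beside 11.7% (5.64% higher and 6.07% lower). At 48 hours calls were made with the combination only. S1pr3 fell and Sphk1 rose, 2 of 8 beside 5.49% of all probe sets (2.62% higher and 2.87% lower), against none with quetiapine (0.116% of all probe sets, 2 of the 8 at an unadjusted p under 0.05) and none with T3 (1.05%, 3 at an unadjusted p under 0.05). The 3 biological replicates differed from each other in level, and those differences were removed by entering the replicate as a block in limma. With that block 3 genes rose and 3 fell in the combination at 48 hours (21.7% of all probe sets passed with the block), 1 rose and 1 fell with quetiapine (3.58%) and 3 rose with T3 (10.1%). At 96 hours 4 rose and 3 fell with the block in the combination (40.6%), 2 rose and 3 fell with quetiapine (17.2%), and 4 rose and 1 fell with T3 (24.6%). The block thus raised the share of passing probe sets over the whole array as well. All comparisons of a time point share the same 3 control arrays.

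**Figure D1:**
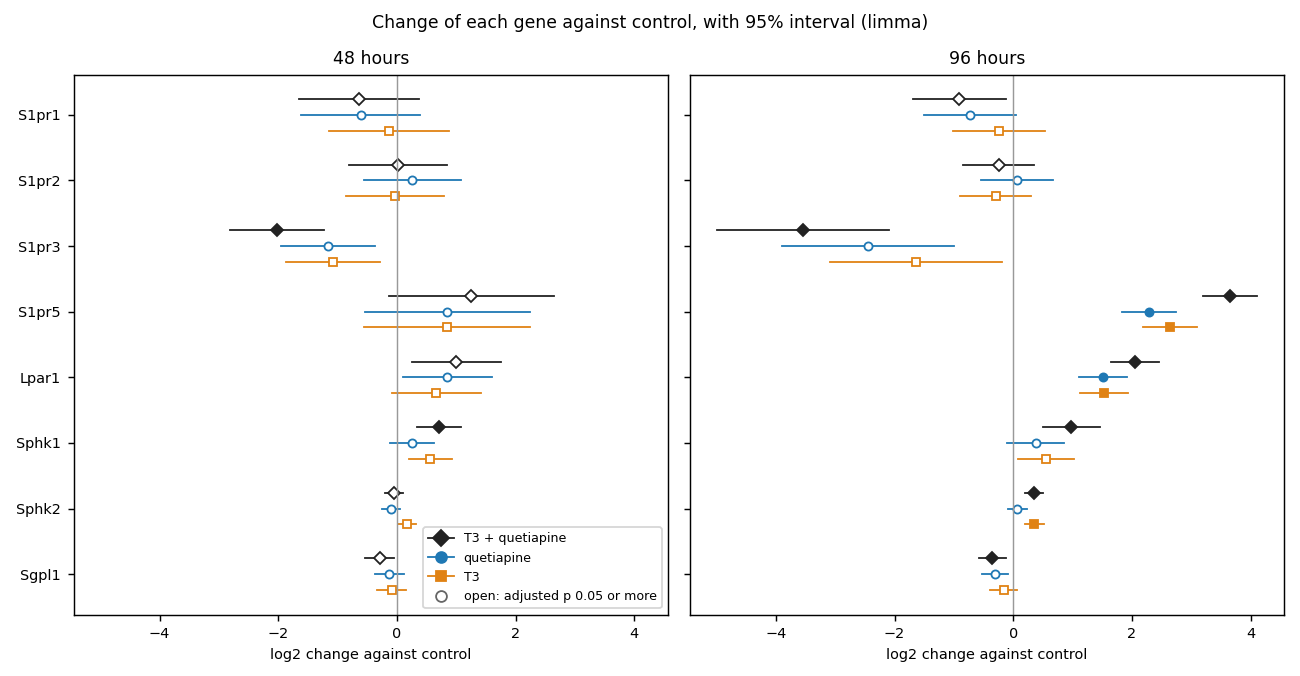
The log2 change of each gene against control is plotted on the x axis at 48 hours (left) and 96 hours (right) for the combination (diamonds), quetiapine (circles) and T3 (squares), with limma's 95% interval as a line and filled symbols at an adjusted p under 0.05. At 96 hours S1pr5 lies furthest to the right, at 3.66 with the combination, and S1pr3 furthest to the left, at −3.54.

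S1pr5, the sphingosine-1-phosphate receptor of the oligodendrocyte lineage (probe set 1368705_at), rose with every treatment at 96 hours. Its log2 expression was 10.77, 11.22 and 11.31 in the combination, 10.13, 9.69 and 9.38 in quetiapine, 9.99, 10.36 and 9.90 in T3, and 7.69, 7.30 and 7.34 in control. All treated arrays lay above all 3 control arrays, and the combination arrays lay above those of either single compound. The combination exceeded control by 3.66 (standard error 0.208, 12.6-fold, adjusted p = 1.17e-06 from limma), quetiapine by 2.29 (4.90-fold, adjusted p = 0.000150) and T3 by 2.64 (6.23-fold, adjusted p = 3.07e-05). These are bulk cultures, in which a change in the number of cells of a type and a change in RNA per cell cannot be told apart. Markers of the myelinating oligodendrocyte moved with S1pr5. Of 7 measured, 7 were higher in the combination than in control at 96 hours and 7 passed the test. With quetiapine 6 of 7 rose, and with T3 6 of 7. Over all probe sets 13.6%, 3.65% and 5.64% were called higher with the combination, quetiapine and T3. The mean level of the list was 12.58 to 13.37 in the combination, 11.79 to 12.59 in quetiapine, 12.09 to 12.96 in T3 and 10.53 to 10.99 in control. Their part in the change of S1pr5 was not tested.

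At 48 hours S1pr5 did not pass the test in any treatment, and its arrays spread widely. The values were 7.46, 7.60 and 9.61 in the combination, 7.21, 7.34 and 8.92 in quetiapine, 7.12, 7.53 and 8.80 in T3, and 6.82, 6.72 and 7.38 in control. Replicate 3 was the highest array of every condition at this time, and only the combination had no overlap with control. The change was 1.25 with the combination (95% interval −0.14 to 2.65, adjusted p = 0.297 from limma, 0.00397 with the replicate block), 0.85 with quetiapine (adjusted p = 0.818, 0.0767 with the block) and 0.84 with T3 (adjusted p = 0.676, 0.0483 with the block). It was above control within 3 of 3 replicates for each treatment. Over the 8 conditions the mean level was lowest in control at 48 hours (6.97 ± 0.357, SD, n = 3 arrays) and highest in the combination at 96 hours (11.10 ± 0.292), and of the neighbours in that order only the last pair, T3 (10.08 ± 0.245) and the combination at 96 hours, had no overlap between arrays.

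**Figure D2:**
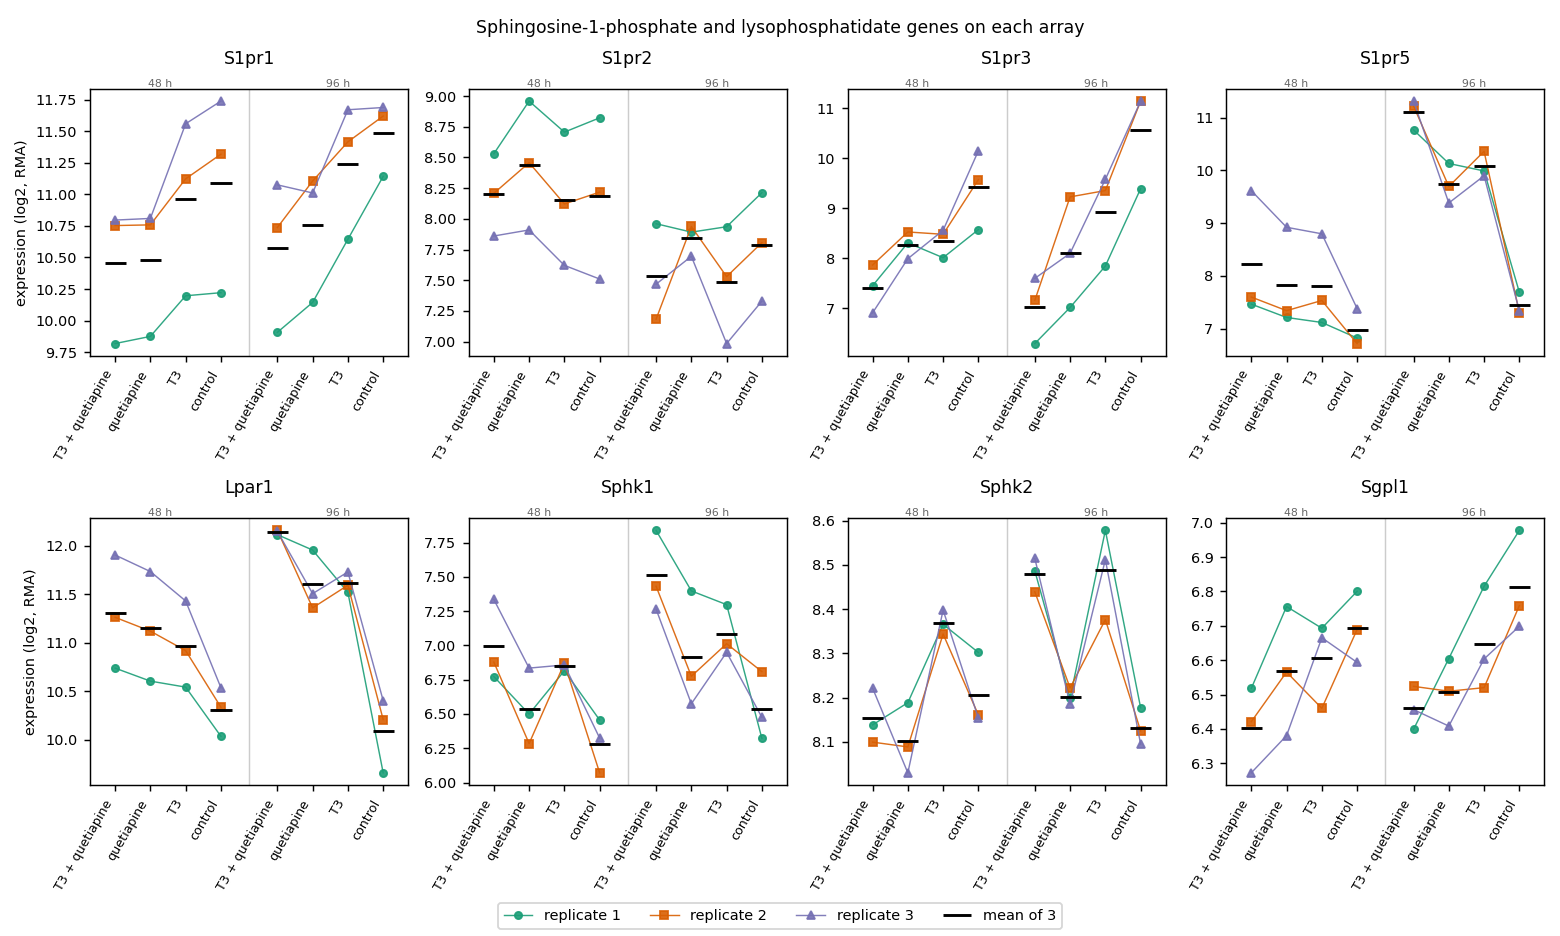
Each panel plots the log2 expression of 1 gene on the 24 arrays, at 48 hours (left of the grey line) and 96 hours (right), with a coloured symbol and line for each biological replicate and a black bar for the mean of 3. The 3 treatments stand above control for S1pr5 and Lpar1 at 96 hours, and S1pr3 runs the other way.

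Lpar1, the main lysophosphatidate receptor of oligodendrocytes in rodents, also rose with every treatment at 96 hours. Its probe set 1374016_at gave 12.11, 12.16 and 12.15 in the combination, 11.96, 11.36 and 11.51 in quetiapine, 11.52, 11.59 and 11.73 in T3, and 9.66, 10.21 and 10.40 in control. No treated array overlapped with control, and the combination arrays were nearly equal to each other and lay above all others. The change was 2.05 with the combination (4.14-fold, adjusted p = 2.23e-05 from limma), 1.52 with quetiapine (adjusted p = 0.000979) and 1.52 with T3 (adjusted p = 0.000548). The second probe set, 1370048_at, followed the first across the 24 arrays (r = 0.993) and gave 2.07, 1.54 and 1.57. The myelin markers that moved with S1pr5 moved with Lpar1 as well.

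Lpar1 was already above control at 48 hours within every replicate. It gave 10.74, 11.26 and 11.90 in the combination, 10.61, 11.12 and 11.73 in quetiapine, 10.54, 10.92 and 11.43 in T3, and 10.04, 10.34 and 10.54 in control. Replicate 1 was the lowest and replicate 3 the highest array of each condition at this time. The changes of 1.00, 0.85 and 0.66 did not pass without the replicate block (adjusted p = 0.119, 0.590 and 0.476 from limma) and passed with it (adjusted p = 0.000204, 0.00378 and 0.00445). In the order of the 8 conditions by this probe set both controls lay lowest and were apart from the treatments at 48 hours. That was by a very narrow margin between replicate 1 of T3 and replicate 3 of control. The combination at 96 hours lay highest and apart from T3 at 96 hours, while all other neighbours overlapped. By the second probe set, 1370048_at, the arrays of quetiapine and of T3 overlapped with control at 48 hours, and those of the combination did not.

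S1pr3, a sphingosine-1-phosphate receptor that couples to several classes of G protein, fell with the combination at both times. At 96 hours its probe set 1376150_at gave 6.29, 7.16 and 7.60 in the combination, 7.01, 9.23 and 8.10 in quetiapine, 7.84, 9.35 and 9.58 in T3, and 9.39, 11.14 and 11.14 in control. Only the T3 arrays overlapped with control. The combination fell by 3.54 on the log2 scale (11.7-fold lower, adjusted p = 0.00216 from limma). The change with quetiapine was −2.45 (5.45-fold lower, adjusted p = 0.0546, 0.000188 with the replicate block), and with T3 it was −1.63 (adjusted p = 0.145, 0.00125 with the block). Quetiapine passed when replicate 1 of control (adjusted p = 0.0245), replicate 1 of T3 (0.0420) or replicate 2 of quetiapine (0.0339) was left out, and also in 1 fit over all 24 arrays (0.0102) and with dim probe sets left out (0.0399).

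At 48 hours S1pr3 was 7.45, 7.86 and 6.91 in the combination, 8.31, 8.53 and 7.99 in quetiapine, 8.01, 8.48 and 8.56 in T3, and 8.57, 9.57 and 10.15 in control. All treated arrays lay below all control arrays, by the narrowest margin between replicate 3 of T3 and replicate 1 of control. The combination fell by 2.03 on the log2 scale (4.07-fold lower, adjusted p = 0.00994 from limma). The changes with quetiapine (−1.16, adjusted p = 0.403, 0.0711 with the block) and T3 (−1.08, adjusted p = 0.220, 0.0551 with the block) did not pass, and that with T3 passed without replicate 1 of control (adjusted p = 0.0477). S1pr3 was lower than control within 3 of 3 replicates for each treatment at each time. Over the 8 conditions its mean ran between 7.02 in the combination and 10.56 in control, both at 96 hours, and all neighbours in the order overlapped.

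Most astrocyte markers were lower where S1pr3 was lower. With the combination at 96 hours 6 of 7 were lower than in control. Of the 7, 5 fell and 1, Slc1a2, rose, beside 15.7% of all probe sets lower and 13.6% higher. With quetiapine 7 of 7 were lower and 1 fell (2.24% of all probe sets lower and 3.65% higher). With T3 6 of 7 were lower, 1 fell and 1 rose (6.07% lower and 5.64% higher). The mean level of the list at 96 hours was 10.29 to 10.93 in the combination, 10.40 to 11.34 in quetiapine, 10.96 to 11.73 in T3 and 11.35 to 11.79 in control. At 48 hours it was 10.40 to 11.16, 10.60 to 11.16, 10.62 to 11.52 and 10.73 to 11.69 in the same groups. None of the 7 passed at that time with the combination, quetiapine or T3, beside 5.49%, 0.116% and 1.05% of all probe sets. Markers of other cell types were also lower in part with the combination at 96 hours. Of 6 neuron markers 4 were lower than in control, 2 fell and 1 rose. Of 6 pericyte and fibroblast markers 3 were lower, 1 fell and 1 rose. The shares over all probe sets are those given above for that comparison. The part of any of these cell types in the levels of S1pr3 and S1pr1 was not tested.

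S1pr1, a receptor that signals through inhibitory G proteins and is a target of the drug fingolimod, fell with the combination and with quetiapine at both times in the fit with the replicate block, and over all arrays did not pass without it. Its brighter probe set, 1371840_at, gave 9.91, 10.74 and 11.08 in the combination at 96 hours, 10.14, 11.11 and 11.01 in quetiapine, 10.64, 11.42 and 11.67 in T3, and 11.14, 11.62 and 11.69 in control. The arrays of the combination and of quetiapine lay below all control arrays, and T3 overlapped. Replicate 1 was the lowest array in 8 of 8 conditions, with a mean over conditions of 10.24, beside 11.10 in replicate 2 and 11.29 in replicate 3. In the astrocyte list replicate 1 was likewise the lowest in 8 of 8 conditions, with means of 10.67, 11.35 and 11.34 for the 3 replicates. This was not particular to S1pr1 and that list. Replicate 1 was also the lowest in 7 of 8 conditions for Lpar1 and in 6 of 8 for S1pr3. For the remaining genes it was the lowest in at most 4 of 8. The change at 96 hours was −0.91 with the combination (95% interval −1.69 to −0.13, adjusted p = 0.0774 from limma, 0.000125 with the block), −0.73 with quetiapine (adjusted p = 0.283, 0.00188 with the block) and −0.24 with T3 (−1.02 to 0.54, adjusted p = 0.751, 0.166 with the block). Without the block the combination passed when its own replicate 3 was left out (adjusted p = 0.0480). S1pr1 was lower than control within 3 of 3 replicates for each treatment at each time. At 48 hours S1pr1 was 9.82, 10.75 and 10.80 in the combination, 9.87, 10.76 and 10.81 in quetiapine, 10.20, 11.12 and 11.56 in T3, and 10.22, 11.32 and 11.74 in control. The changes of −0.64 with the combination and −0.61 with quetiapine passed with the block only (adjusted p = 0.00201 and 0.0162, against 0.483 and 0.818 without it). The second probe set, 1369071_at, had a mean of 5.21 over all arrays, did not follow the first (r = −0.101) and did not pass for any treatment against control, with or without the block.

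**Figure D3:**
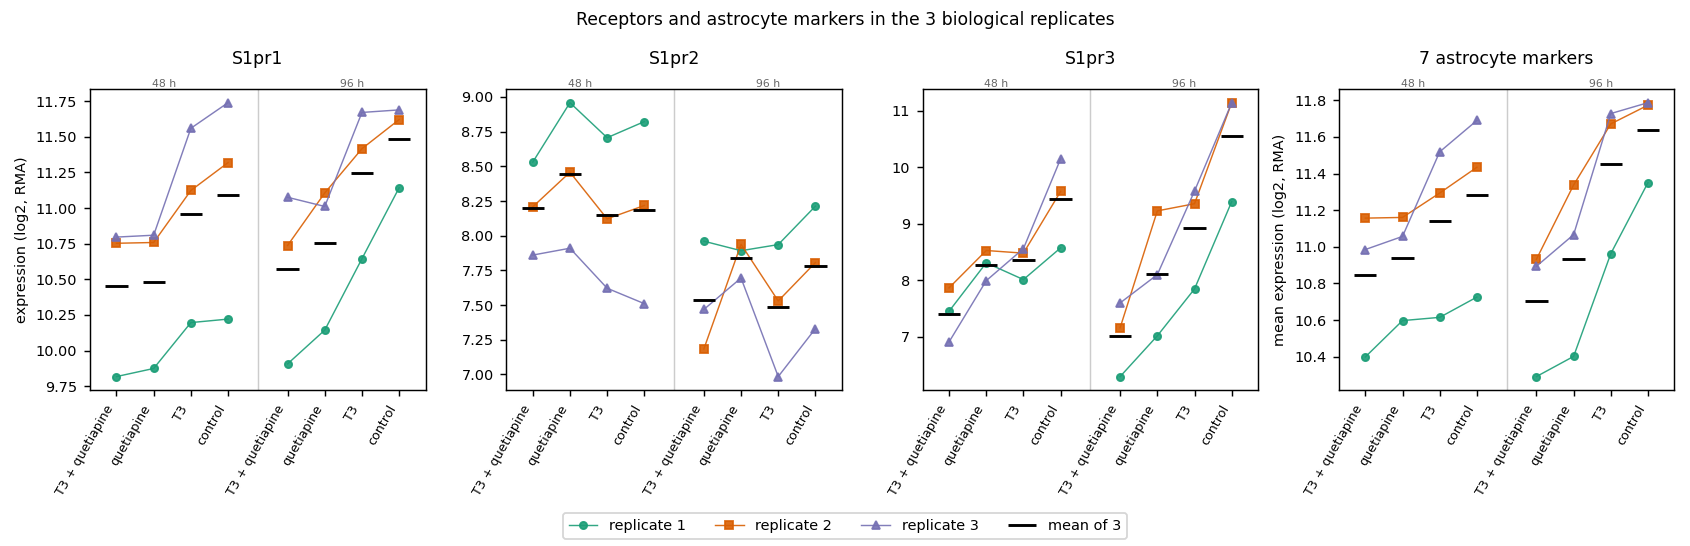
Log2 expression of S1pr1, S1pr2 and S1pr3 and the mean of 7 astrocyte markers are plotted for the 24 arrays at 48 and 96 hours, with a colour for each biological replicate and a black bar for the mean of 3. Replicate 1 is the lowest in every condition for S1pr1 and for the astrocyte markers, and the highest in 7 of 8 conditions for S1pr2.

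S1pr2, a receptor that restrains cell movement, did not differ detectably between any treatment and control by its brighter probe set, with or without the replicate block. At 96 hours its probe set 1386989_at gave 7.96, 7.18 and 7.47 in the combination, 7.89, 7.94 and 7.70 in quetiapine, 7.94, 7.53 and 6.98 in T3, and 8.21, 7.81 and 7.33 in control, and at 48 hours its 12 arrays lay between 7.51 and 8.96. The groups overlapped throughout. The change at 96 hours was −0.25 with the combination (95% interval −0.85 to 0.36), 0.06 with quetiapine (−0.54 to 0.66) and −0.30 with T3 (−0.90 to 0.30), so the intervals hold changes in either direction. The replicates ran in the order opposite to that of S1pr1, with means over conditions of 8.38, 7.93 and 7.55 for replicates 1, 2 and 3. The second probe set, 1367920_at, followed the first (r = 0.945) and passed at 48 hours with the block in the combination (0.38, adjusted p = 0.0104, 0.553 without the block).

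Sphk1, the sphingosine kinase best known from the cytosol and plasma membrane, rose with the combination at both times. At 96 hours probe set 1368254_a_at gave 7.84, 7.43 and 7.26 in the combination, 7.40, 6.77 and 6.57 in quetiapine, 7.30, 7.01 and 6.95 in T3, and 6.32, 6.81 and 6.48 in control. The combination and the T3 arrays lay above all control arrays, and quetiapine overlapped with control. The change was 0.98 with the combination (1.97-fold, adjusted p = 0.00614 from limma), 0.38 with quetiapine (95% interval −0.10 to 0.86, adjusted p = 0.374) and 0.55 with T3 (adjusted p = 0.137, 0.0443 with the block). At 48 hours Sphk1 was 6.77, 6.88 and 7.34 in the combination, 6.50, 6.28 and 6.83 in quetiapine, 6.82, 6.87 and 6.86 in T3, and 6.46, 6.07 and 6.32 in control. The change was 0.71 with the combination (1.64-fold, adjusted p = 0.0334) and 0.56 with T3 (adjusted p = 0.170, 0.0190 with the block). The call in the combination was lost without replicate 2 or 3 of the combination or of control, or without replicate 2 of T3, with an adjusted p of up to 0.112.

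Sphk2, the sphingosine kinase found in the nucleus and in organelles, rose with the combination and with T3 at 96 hours. Its probe set 1373542_at gave 8.49, 8.44 and 8.51 in the combination, 8.20, 8.22 and 8.19 in quetiapine, 8.58, 8.38 and 8.51 in T3, and 8.18, 8.12 and 8.09 in control. The combination and T3 arrays lay above all arrays of quetiapine and control. The change was 0.35 with the combination (1.27-fold, adjusted p = 0.00327 from limma), 0.36 with T3 (1.28-fold, adjusted p = 0.00822) and 0.07 with quetiapine (95% interval −0.08 to 0.22, adjusted p = 0.648). At 48 hours the T3 arrays, at 8.37, 8.34 and 8.40, lay above those of control, at 8.30, 8.16 and 8.15, by 0.16 (adjusted p = 0.355), and the change was −0.05 with the combination and −0.10 with quetiapine, with overlapping arrays. The second probe set, 1376216_at, had a mean of 6.29 and did not follow the first (r = 0.166). Its changes at 96 hours were 0.17 with the combination, 0.14 with quetiapine and 0.05 with T3, and none passed (adjusted p = 0.191, 0.459 and 0.786). The rise of Sphk2 rests on 1 of its 2 probe sets.

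Sgpl1, the lyase that irreversibly cleaves sphingosine-1-phosphate, fell with the combination at 96 hours. Probe set 1382843_at gave 6.40, 6.52 and 6.46 in the combination, 6.60, 6.51 and 6.41 in quetiapine, 6.81, 6.52 and 6.60 in T3, and 6.98, 6.76 and 6.70 in control. The arrays of the combination and of quetiapine lay below those of control, and T3 overlapped. The combination fell by 0.35 on the log2 scale (1.28-fold lower, adjusted p = 0.0217 from limma), and the change was −0.30 with quetiapine (adjusted p = 0.111, 0.0333 with the block) and −0.17 with T3 (95% interval −0.39 to 0.06, adjusted p = 0.351). The call was lost without replicate 1 of control or replicate 1 or 3 of the combination (adjusted p of up to 0.0802). At 48 hours the change with the combination was −0.29 (adjusted p = 0.158, 0.0225 with the block), with 6.52, 6.42 and 6.27 in the combination and 6.80, 6.69 and 6.59 in control.

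The combination was then compared with each compound at 96 hours. Against quetiapine, S1pr5 was higher by 1.36 (2.57-fold, adjusted p = 0.00424 from limma) and Sphk2 by 0.28 (adjusted p = 0.0357), 2 of 8 genes beside 7.41% of all probe sets. Against T3, S1pr5 was higher by 1.02 (2.02-fold, adjusted p = 0.0354), 1 of 8 beside 1.91%. In 1 fit over all 24 arrays neither difference of S1pr5 passed (adjusted p = 0.0915 against quetiapine and 0.293 against T3). The difference of S1pr5 from T3 was also lost without any array of replicate 2, any of replicate 3 but that of quetiapine, or replicate 1 of T3 (adjusted p of up to 0.150), and that of Sphk2 from quetiapine without any array of the combination or of quetiapine, or replicate 3 of T3 (up to 0.118). That difference of Sphk2 was 0.157 with both probe sets averaged (adjusted p = 0.139), and its adjusted p was 0.0549 with an intensity trend and robust prior. With the block the combination also differed from T3 in S1pr1 (−0.67, adjusted p = 0.00494, 0.385 without the block) and S1pr3 (−1.91, adjusted p = 0.00147, 0.172 without it), and from quetiapine in S1pr3 (−1.10, adjusted p = 0.0129, 0.382 without it) and Sphk1 (0.60, adjusted p = 0.0386, 0.132 without it).

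Between the single compounds none of the 8 genes passed at 96 hours (2.63% of all probe sets) or at 48 hours (1.63%), with 1 gene, Sphk2, at an unadjusted p under 0.05 at each time. Quetiapine minus T3 at 96 hours was −0.35 for S1pr5 (95% interval −0.80 to 0.11) and −0.01 for Lpar1 (−0.41 to 0.40), so the interval for S1pr5 includes a level with quetiapine below that with T3 as well as a slightly higher one. For Sphk2 it was −0.29 at 96 hours (adjusted p = 0.0570, 0.0194 with the block) and −0.27 at 48 hours (0.0985, 0.0234 with the block), and for S1pr1 it was −0.49 at 96 hours (0.569, 0.0214 with the block) and −0.48 at 48 hours (0.796, 0.0178 with the block). At 48 hours none of the 8 passed between the combination and T3 (0.0193% of all probe sets) or quetiapine (0.947%), with 2 at an unadjusted p under 0.05 in each.

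The interaction of the compounds is the change with both less the sum of the single changes on the log2 scale. None of the 8 genes passed for it at 96 hours (0.0322% of all probe sets, 2 genes at an unadjusted p under 0.05) or at 48 hours (0 of all probe sets, none of the 8 at an unadjusted p under 0.05), and none passed with the block. The largest values at 96 hours were −1.27 for S1pr5 (95% interval −1.92 to −0.63, adjusted p = 0.430 from limma) and −0.99 for Lpar1 (−1.57 to −0.42, adjusted p = 0.723), both towards less than the sum. For S1pr3 it was 0.54 (−1.52 to 2.59).

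Between 48 and 96 hours S1pr5 rose in each treatment. It was higher at 96 hours by 2.87 in the combination (7.32-fold, adjusted p = 0.000414 from limma), by 1.91 in quetiapine (adjusted p = 0.0472) and by 2.27 in T3 (adjusted p = 0.0127), and by 0.47 in control (95% interval −0.58 to 1.52, adjusted p = 0.807). Lpar1 (0.84, adjusted p = 0.0442) and Sphk2 (0.33, adjusted p = 0.000926) also rose in the combination, so that 3 of 8 genes rose there beside 22.2% of all probe sets, 1 of 8 in quetiapine (2.65%), 1 of 8 in T3 (6.32%) and none in control (0.0226%, none at an unadjusted p under 0.05). The call for S1pr5 in quetiapine was lost without any of 18 of the 24 arrays (adjusted p of up to 0.217), the exceptions being replicate 1 of the combination at both times and of T3 at 48 hours and replicate 3 of each treatment at 48 hours. In T3 it was lost without replicate 1 or 2 at 48 hours or replicate 2 at 96 hours of that group (up to 0.0867). That of Lpar1 was lost without any of 12 arrays, namely replicate 1 of the combination at either time, any array of replicate 2 but quetiapine at 96 hours, and replicate 3 of each treatment at 96 hours (up to 0.252). Its second probe set gave 0.73 (adjusted p = 0.147). In T3 the difference of Lpar1 was 0.65 (adjusted p = 0.198, 0.0440 with the block). The 3' minus 5' difference of beta-actin moved with time too, most in the combination, where it was 0.704 to 0.768 at 96 hours and 0.581 to 0.585 at 48 hours. In control it was 0.643 to 0.665 at 96 hours and 0.577 to 0.623 at 48 hours. That of GAPDH in the combination was −0.132 to −0.0920 at 96 hours and −0.116 to −0.0804 at 48 hours. In control that of GAPDH was −0.107 to −0.0565 at 96 hours and −0.0830 to −0.0399 at 48 hours. The part of the state of the RNA in the differences between the times was not tested. S1pr2 ran the other way, by −0.66 in the combination, −0.60 in quetiapine, −0.67 in T3 and −0.40 in control, and passed in the 3 treatments with the block only (adjusted p = 0.00358, 0.0222 and 0.00728, against 0.200, 0.421 and 0.283 without it). In control S1pr3 was higher at 96 hours by 1.13 (95% interval −0.06 to 2.32, adjusted p = 0.612).

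The genes whose log2 levels followed these receptors most closely over the 24 arrays were named by Pearson's r alone. For S1pr5 they were Hdhd3 (r = 0.983), Arrdc2 (0.981) and Josd2 (0.979). For Lpar1 they were the myelin genes Mbp (0.969) and Cldn11 (0.958), which encode myelin basic protein and a myelin tight junction protein, and Sephs2 (0.957), an enzyme of selenium metabolism. For S1pr3 they were LOC100910973 (0.966), Adcy2, an adenylyl cyclase (0.965), and Nacc2 (0.959). Among the genes themselves S1pr5 and Lpar1 had r = 0.881 and S1pr1 and S1pr3 r = 0.744. The arrays share 8 conditions and 3 biological replicates, so these values describe the arrays and carry no test.

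Of 34 other genes of the 2 pathways 26 had a probe set, and the rest were not analysed here. With the combination at 96 hours 12 of the 26 rose and 3 fell, with a median change of 0.32 beside 0.02 over all probe sets, of which 29.2% passed. With quetiapine 5 rose and none fell (median 0.13, beside 5.89% of all probe sets), and with T3 6 rose and 1 fell (median 0.10, beside 11.7%). With the block it was 8 and 2 for quetiapine (17.2% of all probe sets) and 10 and 1 for T3 (24.6%). At 48 hours 2 rose with the combination, beside 5.49% of all probe sets (7 rose and 1 fell with the block, beside 21.7%), none passed with quetiapine in either fit (1 of the 26 at an unadjusted p under 0.05) and 1 rose with T3, beside 1.05% (3 rose and 2 fell with the block, beside 10.1%).

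**Figure D4:**
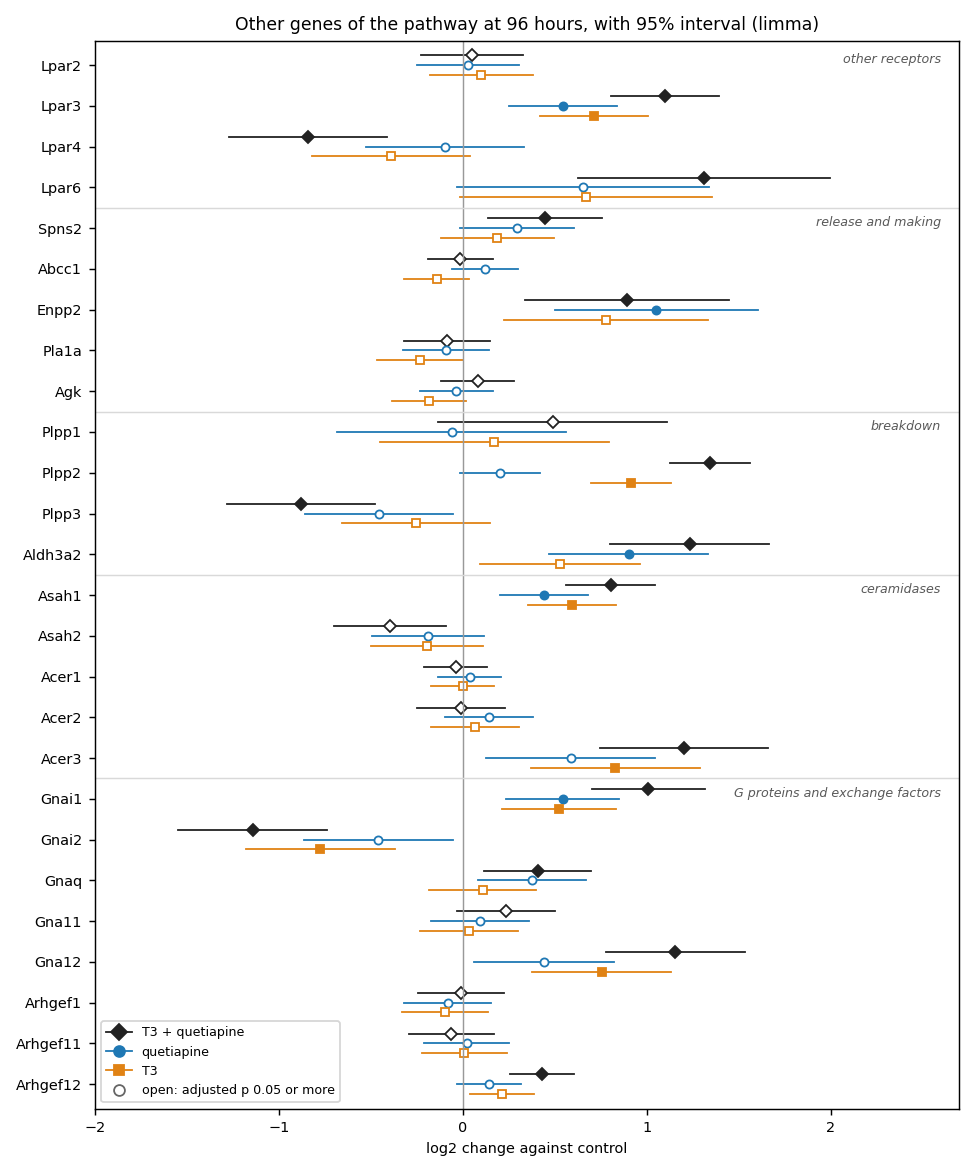
The log2 change against control at 96 hours is plotted on the x axis for the 26 other genes of the pathway that had a probe set, grouped by role, for the combination (diamonds), quetiapine (circles) and T3 (squares), with limma's 95% interval and filled symbols at an adjusted p under 0.05. Plpp2 lies furthest to the right, at 1.34 with the combination, and Gnai2 furthest to the left, at −1.14.

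Among the 4 other receptors measured, Lpar6 and Lpar3, both lysophosphatidate receptors, passed as higher with the combination at 96 hours and Lpar4, another one, fell by 0.84 on the log2 scale (adjusted p = 0.00769 from limma). These calls stand beside 29.2% of all probe sets. The probe set of Lpar4 was dim, with a mean of 5.70 over all arrays (percentile 38.4 of all probe sets). Whether it lay above background was not tested. Lpar6 was 6.67, 7.57 and 8.22 in the combination, 6.61, 7.04 and 6.84 in quetiapine, 6.51, 7.06 and 6.96 in T3, and 5.94, 6.36 and 6.23 in control. All treated arrays lay above control, and the change was 1.31 with the combination (adjusted p = 0.00852 from limma), 0.65 with quetiapine (0.273) and 0.67 with T3 (0.209, 0.0374 with the block). Lpar3 was a dim probe set that the filter on dim probe sets leaves out, and whether it lay above background was not tested. It was at 4.64, 4.55 and 4.88 in the combination and 3.52, 3.68 and 3.56 in control, a change of 1.10 (adjusted p = 0.000152), with 0.54 in quetiapine (0.0382) and 0.71 in T3 (0.00695). Its call in quetiapine was lost without any array of control or quetiapine, or without replicate 3 of T3 (up to 0.137), and in 1 fit over all 24 arrays (0.143).

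Enpp2, which encodes the lysophosphatidate-making enzyme autotaxin, rose with the combination and with quetiapine. At 96 hours it was 11.99, 12.24 and 12.04 in the combination, 12.66, 12.29 and 11.79 in quetiapine, 11.84, 12.07 and 12.02 in T3, and 11.72, 11.20 and 10.67 in control. All treated arrays lay above control, narrowly so between replicate 3 of quetiapine and replicate 1 of control. The change was 0.89 with the combination (adjusted p = 0.0200 from limma), 1.05 with quetiapine (2.07-fold, 0.0336) and 0.78 with T3 (0.0717, 0.0212 with the block). The call with the combination was lost without its replicate 2 or replicate 3 of control (up to 0.0764). The call with quetiapine was lost without its replicate 1 or 2, or without replicate 2 or 3 of T3 or of control (up to 0.123).

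The phosphatase gene Plpp2, whose product removes phosphate from both lipids, rose with the combination and with T3. It was 8.43, 8.55 and 8.30 in the combination, 7.38, 7.37 and 7.11 in quetiapine, 8.05, 8.06 and 7.89 in T3, and 6.99, 7.15 and 7.11 in control at 96 hours. It rose by 1.34 with the combination (2.54-fold, adjusted p = 6.17e-06 from limma) and by 0.92 with T3 (adjusted p = 0.000265), and the change with quetiapine was 0.20 (adjusted p = 0.283). Quetiapine was lower than T3 by 0.71 (adjusted p = 0.00385). Aldh3a2, the fatty aldehyde dehydrogenase that takes up the aldehyde left by Sgpl1, was 10.46, 11.14 and 11.34 in the combination, 10.49, 10.68 and 10.77 in quetiapine, 10.01, 10.31 and 10.50 in T3, and 9.74, 9.69 and 9.80 in control. It rose by 1.23 with the combination (adjusted p = 0.000852) and by 0.90 with quetiapine (adjusted p = 0.0229, lost when the second or the third replicate of control or of quetiapine was left out, up to 0.0823), with 0.53 in T3 (0.116, 0.0161 with the block).

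Acer3, an alkaline ceramidase that frees sphingosine from ceramide, rose by 1.20 with the combination (7.39, 8.01 and 8.20 against 6.70, 6.45 and 6.84 in control, adjusted p = 0.00140 from limma) and by 0.83 with T3 (adjusted p = 0.0261, lost without replicate 1 or 2 of control or 2 or 3 of T3, up to 0.0971). With quetiapine its change was 0.59 (0.137, 0.0154 with the block). Among the 8 G proteins and their exchange factors measured, 4 rose and 1 fell with the combination at 96 hours. This stands beside 29.2% of all probe sets (13.6% higher and 15.7% lower). With quetiapine 1 rose and none fell (5.89% of all probe sets), and with T3 2 rose and 1 fell (11.7%). Gna12, a G protein alpha subunit, rose by 1.16 with the combination (12.42, 12.87 and 13.10 against 11.61, 11.62 and 11.69 in control, adjusted p = 0.000552) and by 0.76 with T3 (0.0172, lost without replicate 2 or 3 of T3, up to 0.0679), with 0.44 in quetiapine (0.175, 0.0117 with the block). Gnai2, an inhibitory subunit, fell by 1.14 on the log2 scale with the combination (9.25, 9.19 and 9.23 against 9.93, 10.46 and 10.69 in control, adjusted p = 0.000888). With T3 it fell by 0.77 (0.0204, lost without replicate 1 or 2 of T3 or 2 or 3 of control, up to 0.0767), and its change with quetiapine was −0.46 (0.186, 0.0295 with the block). Gnai1, another inhibitory subunit, ran the other way and rose by 1.01 with the combination (adjusted p = 0.000361), and the phosphatase gene Plpp3, which was lower where Plpp2 was higher, fell by 0.88 on the log2 scale (adjusted p = 0.00412). Lpar4, Gnai1 and Plpp3 were picked out after their values were seen.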

How the data were processed

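RNA of 24 cultures was hybridised to Affymetrix rat expression arrays. The authors normalized the arrays by the robust multi-array average and deposited log2 expression values per probe set, with the version of the software not given in the sources used here. How precise a value is depends on how many arrays there were, since such values carry no counts. Of 31099 probe sets, 57 controls were left out. In the platform's annotation 20826 of the rest had 1 symbol, 436 had several and 9780 had none, and genes were named only from the first kind.

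Each time point was fitted on its 12 arrays with limma 3.58.1 in R 4.3.3, as 4 group means without a block, and differences between the times on all 24 arrays. P-values were adjusted by Benjamini-Hochberg over 31042 probe sets, and a probe set passed at an adjusted p under 0.05. The fit was tested on simulated data. The simulated arrays were independent, with no differences between replicates, so that test does not cover the fit without a block where replicates differ. The design text says that each of 3 biological replicates gave a sample of every condition. At 48 hours the deviations of same-numbered arrays from their group means correlated at 0.430 to 0.777 over 18 pairs, against −0.681 to −0.00478 over 36 pairs of different number, and at 96 hours at 0.309 to 0.690 against −0.583 to 0.243. The fit with the replicate as a block is therefore given beside the results whose call it changes. Cultures from before treatment were not analysed here.

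Of the other pathway genes, those with an adjusted p under 0.05 and a fold over 2 in at least 1 treatment against control at 96 hours were named, at most 8 by the size of the change, and 9 met the rule. The genes, the lists and the rules were chosen with earlier results of these data known. The alternatives were the replicate block, 1 fit over all 24 arrays, arrays centred on their medians, dim probe sets left out, the mean of all probe sets of a gene, an intensity trend with a robust prior, a fold limit of 1.5 and leaving out each array in turn.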

Additional observations from a re-analysis of the deposited data

Results flagged for a closer look

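The change against control with the combination was compared between the times, as 96 minus 48 hours in limma's fit over 24 arrays. It differed for S1pr5 and Sphk2, 2 of the 8 receptors and enzymes, beside 6.42% of all probe sets. It also differed for Plpp2, Lpar6, Aldh3a2 and Gna12. Those pathway genes were named for the size of their change at 96 hours. That choice favours a larger change at that time, so they are not counted beside the share. For S1pr5 the difference was 2.40 on the log2 scale (1.25 at 48 hours and 3.66 at 96 hours, adjusted p = 0.0490). That call was lost without any of 18 of the 24 arrays (adjusted p of up to 0.138), the exceptions being replicates 1 and 3 of T3 and of quetiapine and replicate 3 of the combination at 48 hours, and replicate 1 of the combination at 96 hours. Its adjusted p was 0.0553 with an intensity trend and robust prior. For Lpar1 the difference was 1.05 (adjusted p = 0.143, 0.0243 with the replicate block). For Sphk2 it was 0.40 (−0.05 and 0.35, adjusted p = 0.0107), with an adjusted p of 0.0983 when both probe sets were averaged. For Plpp2 it was 0.92 (0.42 and 1.34, adjusted p = 0.00188), for Lpar6 1.46 (−0.15 and 1.31, 0.0248), for Aldh3a2 1.14 (0.09 and 1.23, 0.00428) and for Gna12 0.72 (0.44 and 1.16, 0.0343). None of the 8 receptors and enzymes differed in this way with quetiapine alone or with T3 alone (none and 3 at an unadjusted p under 0.05). The share of all probe sets that passed in those tests is not given here. The lack of calls is therefore not a result about these genes, nor does it make the difference particular to the combination.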

How the results depend on the processing

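With the replicate block 28 changes of the 8 genes newly passed and none was lost. The block also raised the share of all probe sets that passed against control. With the combination it went from 5.49% to 21.7% at 48 hours and from 29.2% to 40.6% at 96 hours. For comparisons between treatments or between times the share with the block is not given here. The gain is therefore not a result about these genes. The number of the 8 genes that passed, summed over the comparisons, became 11 with the replicate block against 2 without it for the treatments against control at 48 hours, 17 against 11 at 96 hours, 2 against 0 between treatments at 48 hours, 9 against 3 between treatments at 96 hours, and 12 against 7 between the times. Without each array in turn these counts lay between 1 and 3, 10 and 12, 0 and 0, 1 and 4, and 3 and 9. In 1 fit over all 24 arrays 1 difference passed between treatments at 48 hours. No interaction passed under any alternative. With the mean of all probe sets of a gene, 3 changes at 48 hours that did not pass turned in sign, to 0.0416 for Sphk2 with the combination, 0.0176 for Sphk2 with quetiapine and 0.0268 for S1pr2 with T3, and the cause was not tested. Leaving out 1 array turned the sign of 6 changes that did not pass, that of S1pr2 with T3 at 48 hours among them. S1pr2 at 48 hours ranged over −0.32 to 0.34 with the combination, −0.0781 to 0.578 with quetiapine and −0.37 to 0.29 with T3. S1pr1 with T3 ranged over −0.57 to 0.25 at 48 hours and −0.454 to 0.0596 at 96 hours, and S1pr2 with quetiapine over −0.17 to 0.27 at 96 hours. With the intensity trend and robust prior 3 calls were lost in limma, namely S1pr5 between the times in quetiapine (adjusted p = 0.0534), Sphk2 between the combination and quetiapine at 96 hours (0.0549) and the difference between the times in the change of S1pr5 with the combination (0.0553). With the mean of all probe sets 3 calls were lost, Sphk2 between the combination and quetiapine at 96 hours (0.139), Lpar1 between the times in the combination (0.0754) and the difference between the times in the change of Sphk2 (0.0983). Centring the arrays changed no call. With 3 arrays a group the intervals of S1pr2 against control held changes in either direction.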
